A study of Anser cygnoides with 18 samples.

Results

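The genes described here belong to the endothelium, the cell layer that lines blood and lymph vessels, and to angiogenesis, the growth of new vessels. A list of 50 genes was drawn up by name, and a gene became a member when its symbol in the goose reference annotation stood on that list. The rule itself used no expression value, but the list was drawn up with earlier results of these data known. Of the 50 genes, 45 had values among the 14628 genes of the mRNA table, and ACVRL1, NOTCH4, NOS3, SOX17 and EPHB4 are not analysed here. Grouped by role, the 45 members were 5 receptors and co-receptors of vascular endothelial growth factor (VEGF), 3 VEGF ligands, 5 angiopoietins and Tie receptors, 8 surface and junction proteins, 2 hypoxia factors, 7 transcription factors, 6 Notch genes, 6 ephrin, platelet-derived growth factor and guidance genes, and 3 scavenger receptors.

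VEGF ligands released by tissue cells bind receptors on endothelial cells and start vessel growth, and hypoxia factors raise their transcription when oxygen is low. Angiopoietins acting on the receptor TEK then settle or loosen the new vessels, while Notch signalling between neighbouring endothelial cells decides which of them sprout. In the liver the smallest vessels are sinusoids, whose endothelial cells are perforated and carry scavenger receptors that clear waste from blood, whereas adipose tissue holds capillaries with a closed lining. Most of these roles were worked out in mammals.

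The geese were males of the Tianfu meat breed, a hybrid composite of Anser anser and Anser cygnoides, and they were 126 days old when a feeding trial of 19 days began. Both groups received the same diet. Control geese ate freely, and high-intake geese were force-fed meals that grew in size and number during the trial. All of them were killed at 145 days of age after a night without feed. Liver, abdominal adipose (AA) and subcutaneous adipose (SA) were sequenced from 3 geese of each feeding group, which gave 18 libraries, 3 for each tissue and group. The control geese are C1 to C3 and the high-intake geese T1 to T3. C1-L, C1-AA and C1-SA, the liver, abdominal and subcutaneous adipose libraries with the same number, are read here as 1 goose. The labels give the number as a replicate and do not state that it marks the same goose in each tissue. RNA came from whole tissue, in which fewer cells of a type and less RNA per cell cannot be told apart.

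Expression was measured as FPKM, fragments per kilobase of transcript per 1000000 mapped fragments, a unit that scales for transcript length and library size. It does not make libraries fully comparable where their summed FPKM differs, as it did here. The number of fragments behind each value is unknown. The mRNAs of a library summed to an FPKM of 387525 to 438339 in liver and 221093 to 394709 in 11 adipose libraries. The sum was 107522 in C2-SA, whose values stood apart from the other adipose libraries. The tissue labels held for PLIN1 and APOB, though not for every marker gene of fat cells and hepatocytes. The fat-cell gene PLIN1 was at 270 to 1330 in the adipose libraries and at most 2.46 in the livers, and the hepatocyte gene APOB was at 1091 to 1640 in the livers and at most 58.5 in adipose. GPD1 and AGPAT2, also listed for fat cells, were at 76.8 to 391 and 16.2 to 114 in liver. In adipose they were at 26.1 to 77.4 and 2.60 to 16.5. The hepatocyte genes listed summed to 119 to 3317 in adipose and 18461 to 32576 in liver. An exact 0 can be a failed estimate, since ALB, the main protein of liver, was listed at 0 in 5 of the 6 livers and at 9871 in T2-L. Among the members, HEY2 was listed at 0 in 5 libraries and no other member was listed at 0.

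In control geese, most endothelial and angiogenesis genes were lower in liver than in abdominal adipose, and a few were far higher. Summed over the 45 members, FPKM was 379.6 to 469.4 in control livers, 973.4 to 1344.4 in control abdominal adipose and 465.1 to 920.2 in control subcutaneous adipose. The receptors of the liver sinusoid led the members that were higher in liver, and transcription factors, VEGF receptors and adhesion proteins led those that were lower. Between control liver and control abdominal adipose, 34 of the 45 members tested were lower in liver and 6 were higher at an adjusted p under 0.05 (limma), where 43.5% of all 12422 genes tested were lower, 19% were higher and 62.5% were called in either direction. The median difference of liver minus abdominal adipose in log2(FPKM + 1) was -1.85 for the members and -0.31 for all genes.

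LYVE1, a receptor for the matrix sugar hyaluronan on lymphatic and sinusoidal endothelium, showed the largest excess in liver. Its FPKM was 52.3, 51.8 and 112.5 in C1-L, C2-L and C3-L, and 5.14, 1.95 and 1.36 in C1-AA, C2-AA and C3-AA. The groups did not overlap, and liver was higher by 4.29 ± 0.425 (SE) in log2(FPKM + 1) (limma, adjusted p = 0.0001025).

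STAB2, a scavenger receptor of liver sinusoids that also takes up hyaluronan, was at 6.16, 5.22 and 6.00 in the control livers and at 0.278, 0.135 and 0.0885 in control abdominal adipose. Every liver lay above every abdominal library, with a difference of 2.54 ± 0.131 (SE; limma, adjusted p = 6.126e-06). TEK, the receptor of the angiopoietins, was at 15.2, 18.7 and 23.6 in control livers and at 4.23, 9.36 and 4.23 in control abdominal adipose, a difference of 1.60 ± 0.300 (SE; limma, adjusted p = 0.002473). The other members higher in liver were the TEK ligand ANGPT1 (1.21 on the log2 scale, adjusted p = 0.002824), SEMA3A, a secreted guidance protein that binds neuropilins (1.01, adjusted p = 0.00094), and EPAS1, a hypoxia factor abundant in endothelium (0.72, adjusted p = 0.0197; limma for the 3 genes). STAB1, the relative of STAB2, did not pass the test in this comparison, at 9.15 to 13.6 in control livers and 10.7 to 18.2 in control abdominal adipose.

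At the other end stood SOX7, a transcription factor of early endothelium, with FPKM of 0.122, 0.439 and 0.495 in the control livers and 31.8, 48.9 and 38.8 in control abdominal adipose. No control liver came near an abdominal library, and liver was lower by 4.91 ± 0.202 (SE) on the log2 scale (limma, adjusted p = 2.579e-06). HEY1, a transcription factor switched on by Notch, was at 1.53, 1.06 and 1.61 in liver and at 18.1, 49.4 and 40.8 in abdominal adipose, with a difference of -3.84 ± 0.346 (SE; limma, adjusted p = 6.593e-05). VWF, the clotting protein stored by endothelial cells, was at 2.38, 2.63 and 4.92 in liver and at 31.4, 70.4 and 50.6 in abdominal adipose, a difference of -3.56 ± 0.331 (SE; limma, adjusted p = 7.645e-05).

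The 5 VEGF receptors and co-receptors and the 7 transcription factors were lower in control liver than in control abdominal adipose at an adjusted p under 0.05 in every case. Of the 8 surface and junction proteins 7 were lower, the exception being CDH5, the cadherin that joins endothelial cells, at 16.9 to 26.9 in liver and 24.0 to 51.1 in abdominal adipose (adjusted p = 0.1419). Of the 6 Notch genes 5 were lower, and of the 3 VEGF ligands VEGFA alone was (-1.12, adjusted p = 0.0008584, limma). The median of all genes in this comparison moved by over 0.1 when libraries were rescaled, and with each library centred on its median 30 members were called lower and 7 higher in liver, beside 23.9% and 37.8% of all genes. With libraries scaled to the same sum the counts were 38 and 5, beside 62.6% and 12.6% of all genes.

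**Figure D1:**
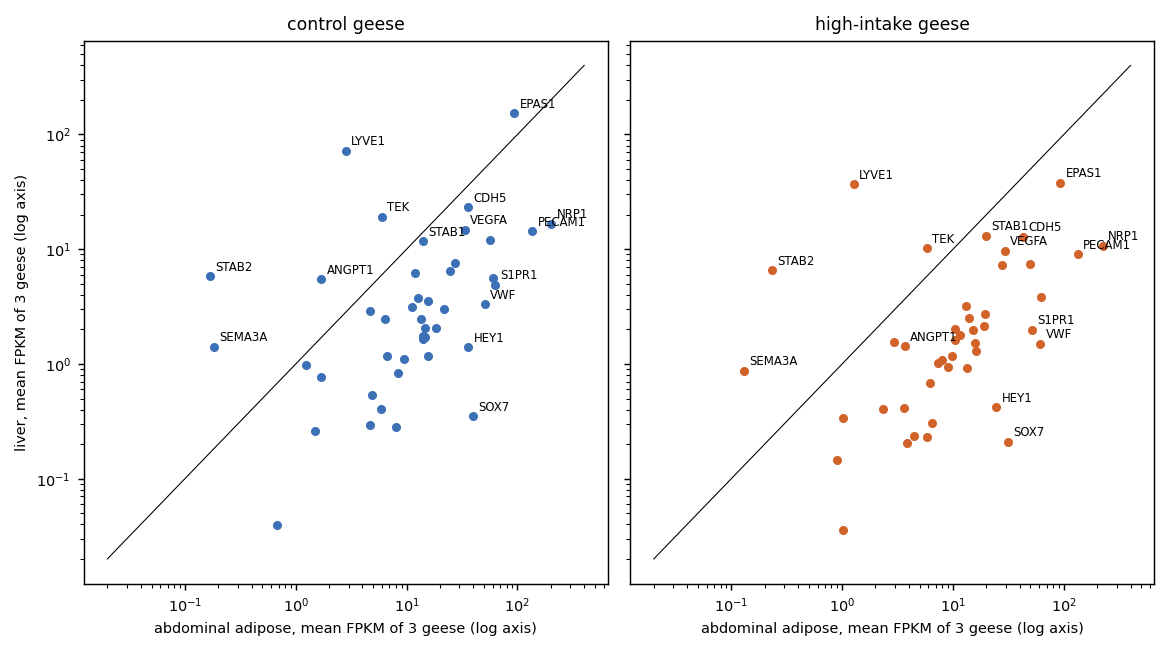
Mean FPKM of each member other than HEY2 in liver (vertical, log axis) against abdominal adipose (horizontal, log axis), each the mean of 3 geese, in control geese on the left and high-intake geese on the right, with the line of equal level. Most points lie below the line, LYVE1, STAB2, TEK and SEMA3A lie above it in both panels, and EPAS1 and ANGPT1 lie above it in control geese and below it in high-intake geese.

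The same contrast in other pairs of tissues again called more members lower than higher in liver, and none between the fat depots. The counts differed between the pairs. Between control liver and control subcutaneous adipose, 24 members were lower and 5 higher in liver (limma, adjusted p under 0.05), where 23.5% of all genes were lower, 12% higher and 35.6% called in either direction. Without goose C2, whose subcutaneous library stood apart, 38 members were called, beside 55.9% of all genes. Without goose C3 17 were, beside 16.7% of all genes. In high-intake geese 38 members were lower in liver than in abdominal adipose and 4 higher, of 44 tested (41.7% of all genes lower, 14.3% higher and 55.9% either way). Against subcutaneous adipose 36 were lower and 4 higher (41.3% of all genes lower, 15.9% higher and 57.2% either way).

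Between abdominal and subcutaneous adipose, limma called no member in control geese (0.149% of all genes higher and 0.126% lower, 0.275% in all). Of 45 members 40 had a higher log2 mean in abdominal adipose, where 63.9% of all genes did and 36.1% were lower. Without goose C2, 9 of 45 members were lower in abdominal adipose, where 61.5% of all genes were. An unadjusted p under 0.05 was reached by 11 members higher and 1 lower, beside 4.66% and 3.51% of all genes. The groups did not overlap for 24 members higher and 1 lower in abdominal adipose, where this held for 10.4% and 4.54% of all genes. With the goose as a block, which pairs the depots of an animal, ROBO4 (1.08, adjusted p = 0.02302) and TAL1 (1.37, adjusted p = 0.04134) were called with limma, where this fit called 2.87% of all genes, 1.5% higher and 1.38% lower. ROBO4, a guidance receptor of endothelium, was at 3.40, 7.36 and 3.17 in C1-AA to C3-AA and 2.1, 1.24 and 1.36 in C1-SA to C3-SA. TAL1, a transcription factor of blood and endothelial lineages, was at 7.58, 18.6 and 17.7 in the abdominal and 6.79, 2.33 and 6.02 in the subcutaneous libraries. In each control goose both genes were higher in the abdominal depot. The gap was widest in goose C2, whose subcutaneous library stood apart, and the block fit was not run without goose C2. In high-intake geese limma called no member (0.00811% of all genes higher and 0.0406% lower, 0.0487% in all). At an unadjusted p under 0.05, 8 members were higher and 2 lower in abdominal adipose, beside 3.86% and 2.52% of all genes, and the lowest p belonged to LYVE1, which was lower in abdominal adipose by 1.57 ± 0.340 (SE; limma, adjusted p = 0.3325).

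High-intake feeding was set against control feeding within each tissue. In liver, endothelial and angiogenesis genes were lower in the high-intake geese across nearly every role. Of the 43 members that passed the filter on low values (a mean FPKM above 0.1), 38 had a lower mean of log2(FPKM + 1) in high-intake livers, the scale on which all directions are counted here, where 47.1% of all 11752 genes tested did. EPAS1, ANGPT1, EMCN, DLL4 and VEGFC fell at an adjusted p under 0.05 (limma), where 0.919% of all genes were called lower, and no member rose, where 1.27% of all genes were called higher. The control and high-intake livers did not overlap for 22 members, all of them lower in the high-intake livers, against 15.4% of all genes lower without overlap, and no member was higher without overlap, against 16.1% of all genes. Summed over the members, FPKM was 425.4, 379.6 and 469.4 in C1-L, C2-L and C3-L and 205.3, 195.8 and 206.6 in T1-L, T2-L and T3-L, with EPAS1 alone making up 36.1% of the sum in control geese and 18.7% in high-intake geese. The median difference of the members in log2(FPKM + 1) was -0.50, beside 0.03 for all genes. HEY2 and UNC5B had a mean of 0.1 or less in liver and were not tested there.

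EPAS1 encodes the hypoxia-inducible factor HIF-2 alpha, which in endothelium drives genes of vessel growth, and its gene lies on scaffold NW_013185659.1 at 14367604 to 14496956 on the minus strand of the AnsCyg assembly. Its FPKM was 164.3, 157.7 and 138.0 in C1-L, C2-L and C3-L and 28.16, 24.99 and 60.66 in T1-L, T2-L and T3-L. The groups were far apart, with T3-L the highest of the high-intake livers. The difference of high-intake minus control was -2.095 ± 0.332 (SE) on the log2 scale (limma, adjusted p = 0.03844). HIF1A, the other hypoxia factor and a gene active in most cell types, was at 7.30, 5.42 and 6.58 in control and 6.92, 8.96 and 6.14 in high-intake livers, which overlapped (0.16 ± 0.191, adjusted p = 0.6391).

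ANGPT1, the angiopoietin that stabilises vessels through TEK, lies on scaffold NW_013185690.1 at 4756216 to 4938789 on the minus strand. It was at 4.7, 3.75 and 7.95 in the control livers and at 1.10, 1.85 and 1.33 in the high-intake livers. All high-intake livers were below all controls, and the difference was -1.37 ± 0.261 (SE; limma, adjusted p = 0.04942). Its relative ANGPT2, which loosens vessels by competing for the same receptor, was at 2.84, 1.44 and 3.11 against 0.781, 0.646 and 1.32, again without overlap, but did not pass the test (-0.83 ± 0.240, adjusted p = 0.1049). Their receptor TEK was at 15.2, 18.7 and 23.6 against 12.2, 7.41 and 11.2, a difference of -0.85 that did not pass (adjusted p = 0.1015). TIE1, the partner of TEK, overlapped between the groups, with T1-L the highest liver at 2.43 and the other 5 livers at 0.741 to 1.32. ANGPT4, the remaining angiopoietin, was below 1 in every liver.

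EMCN encodes endomucin, a sialic acid-rich surface protein of capillary and venous endothelium, and lies on scaffold NW_013185942.1 at 429872 to 480621 on the plus strand. Control livers had 7.75, 4.61 and 6.42 and high-intake livers 2.13, 1.86 and 2.06, so that the lowest control was above the highest high-intake value. The difference was -1.25 ± 0.198 (SE; limma, adjusted p = 0.03844). On the log2 scale all 8 surface and junction proteins had a lower mean in high-intake livers, 4 of them without overlap, although the mean FPKM of ENG was 2.47 in control and 2.52 in high-intake livers.

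PECAM1, an adhesion molecule on all endothelium, was at 14.3, 11.3 and 17.3 in control and 6.83, 10.8 and 9.41 in high-intake livers. VWF was at 2.38, 2.63 and 4.92 in control and 1.11, 1.46 and 1.96 in high-intake livers, also without overlap. ESAM, a junction adhesion molecule, was at 6.71, 5.32 and 4.77 against 5.44, 4.42 and 1.72, and overlapped. None of the 3 passed the test, with differences of -0.62 for PECAM1 (adjusted p = 0.155), -0.75 for VWF (adjusted p = 0.1337) and -0.52 for ESAM (limma, adjusted p = 0.3627). CDH5 was at 16.9 to 26.9 in control and 11.1 to 14.9 in high-intake livers (-0.80, adjusted p = 0.09863). S1PR1, the receptor for the blood lipid sphingosine 1-phosphate, overlapped despite its -0.94, since the control livers spread from 2.64 to 8.24. The coreceptor ENG, which binds transforming growth factor beta ligands, and ROBO4 differed by -0.04 and -0.10.

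DLL4, the Notch ligand of sprouting tip cells, lies on scaffold NW_013185657.1 at 9712444 to 9720634 on the minus strand. It was at 6.92, 6.83 and 9.12 in the control livers and at 3.05, 1.97 and 3.09 in the high-intake livers. There was no overlap, and the difference was -1.22 ± 0.200 (SE; limma, adjusted p = 0.04029). The 5 Notch genes tested in liver all had lower log2 means in the high-intake group. HEY1, a target of the pathway, came nearest to the threshold among the members not called, at 1.06 to 1.61 in control and 0.273 to 0.687 in high-intake livers (-0.76, adjusted p = 0.06182). The ligand JAG1 was at 0.573 to 0.963 against 0.332 to 0.537 without overlap, the ligand JAG2 overlapped (-0.67, adjusted p = 0.1932), and the receptor NOTCH1 was at 0.494 to 0.553 and 0.342 to 0.525, which overlapped.

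VEGFC, the ligand that drives lymphatic vessels through FLT4, lies on scaffold NW_013185763.1 at 578850 to 679458 on the plus strand. Its level was low, at 0.975, 0.907 and 1.08 in C1-L to C3-L and 0.388, 0.353 and 0.279 in T1-L to T3-L. The groups were narrow and did not overlap, and the difference was -0.57 ± 0.1 (SE; limma, adjusted p = 0.04367). Since 1 is added to FPKM before the log, this value understates the ratio between such low levels. VEGFA, the main ligand of angiogenesis, was at 13.9 to 16.4 in control and 8.04 to 11.6 in high-intake livers without overlap (-0.57, adjusted p = 0.1185), and so was FIGF, which encodes VEGF-D, at 2.52 to 3.25 against 0.889 to 2.13 (-0.63, adjusted p = 0.1332).

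The receptors for these ligands were lower on average as well, and none passed the test. KDR, the main signalling receptor of VEGFA, was at 4.55, 3.16 and 2.92 in control and 2.67, 1.49 and 1.74 in high-intake livers, a difference of -0.62 (adjusted p = 0.1433). FLT1, which binds VEGFA and holds it from KDR, was at 1.92 to 2.39 against 1.07 to 1.25 (-0.50, adjusted p = 0.09231). Both were without overlap. The co-receptor NRP1, the most abundant member over the 18 libraries, was at 19.5, 14.5 and 16.2 in control and 14.5, 8.51 and 9.19 in high-intake livers, where T1-L and the lowest control C2-L had nearly the same level and the groups overlapped (-0.62, adjusted p = 0.1605). FLT4 and NRP2 differed by -0.32 and -0.08 and overlapped.

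Among the transcription factors of endothelium, all 7 had lower log2 means in high-intake livers and 4 did not overlap between groups, but none was called. FLI1, an ETS factor of blood and vessel cells, was at 9.99 to 13.6 in control and 6.71 to 8.09 in high-intake livers (-0.64, adjusted p = 0.09282), and its relative ERG was at 2.95 to 3.32 against 1.38 to 2.27 (-0.56, adjusted p = 0.11). SOX18, a factor of vessel and lymphatic development, was at 0.659 to 1.03 against 0.176 to 0.459 (-0.49, adjusted p = 0.08845). GATA2, the remaining factor without overlap, was below 0.3 in every liver, and ETS1, TAL1 and SOX7 overlapped.

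The scavenger receptors and guidance genes did not all differ in the same direction in liver. LYVE1 was at 52.3, 51.8 and 112.5 in control and 32.7, 47.6 and 30.4 in high-intake livers, which did not overlap (-0.88, adjusted p = 0.1744). STAB1 and STAB2, the other scavenger receptors of the sinusoid, overlapped between the groups, with STAB1 at 9.15 to 13.6 and 10.4 to 18.3 (0.12) and STAB2 at 5.22 to 6.16 and 3.55 to 8.86 (0.08). The pericyte receptor PDGFRB was lower without overlap (-0.48, adjusted p = 0.1341), and the arterial ligand EFNB2 (-0.36), SEMA3A (-0.35) and the pericyte attractant PDGFB (-0.06) overlapped. PLXND1, a semaphorin receptor on endothelium, had the highest difference of any member, 0.20 (adjusted p = 0.5063).

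**Figure D2:**
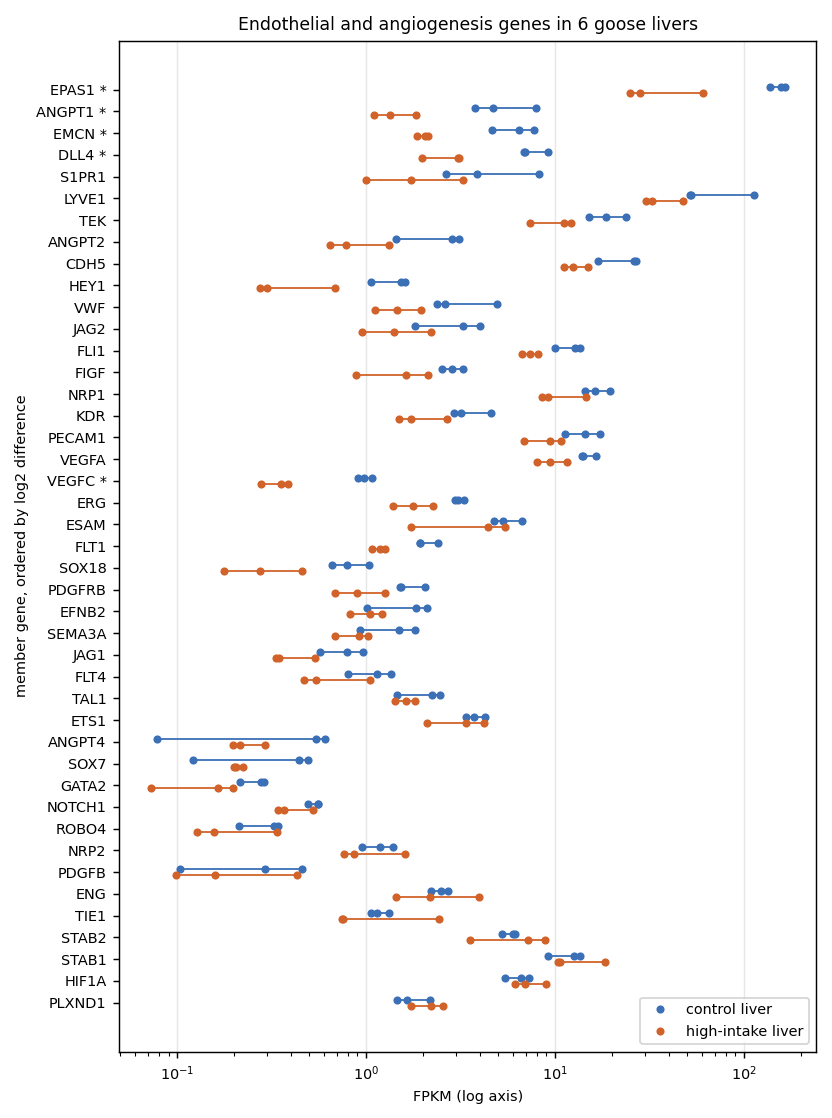
FPKM (log axis) of the 43 members tested in liver, ordered by the log2 difference between feeding groups, with 3 control livers (blue) and 3 high-intake livers (orange) as points joined by the range of each group; an asterisk marks the members called by limma. The called members EPAS1, ANGPT1, EMCN, DLL4 and VEGFC show no overlap, and TIE1, STAB2, STAB1, HIF1A and PLXND1 at the bottom show overlapping ranges.

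The calls in liver rested on 3 geese a group: 0 members were called when C1-L, C2-L, C3-L, T1-L or T2-L was left out, and 2 (EPAS1 and DLL4) without T3-L. In the same order, 0%, 0.331%, 0.111%, 0.521%, 1.87% and 2.02% of all genes were called, beside 2.19% with no library left out. The count of members with a lower log2 mean was 35 to 41 of 43 over these fits, where 44.7% to 50.3% of all genes were lower.

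Genes of other cell types also differed between the feeding groups in liver, not all in the same direction, and their part in the result was not tested. Of all genes tested 47.1% were lower, 0.919% were called lower and 1.27% were called higher. All 8 skeletal muscle genes were lower in high-intake livers, none called, with a summed FPKM of 88.4, 9.52 and 87.2 in C1-L, C2-L and C3-L and 3.19, 1.26 and 13.0 in T1-L, T2-L and T3-L, and MB listed at 0 in the 3 high-intake livers. Of 15 fibroblast and stellate cell genes tested 10 were lower, with DCN and COLEC11 called, and their sum was 372 to 564 in control and 207 to 279 in high-intake livers. Of 9 smooth muscle and pericyte genes 7 were lower, with SYNPO2 called, at 53.5 to 132 and 32.5 to 54.5. Of 14 lymphocyte genes 13 were lower, with CD8A and IL7R called, at 33.7 to 41.2 and 15.7 to 26.6. Of 12 macrophage genes 8 were lower and none was called, at 384 to 561 and 274 to 513, and of 13 hepatocyte genes 5 were higher and 8 lower, with FABP1 called higher, at 18461 to 20250 and 20085 to 32576. FABP1 was listed at 0 in the 3 control livers and at 2.16 to 5.32 in the high-intake livers, and the sum of 32576 in T2-L held ALB at 9871 with FGG and TF listed at 0, so this call and this range rest on zeros that can be failed estimates. Of 11 adipocyte genes 5 were higher, 1 of them called, and 6 lower, at 448 to 498 and 403 to 812. Of 5 cholangiocyte genes 3 were higher and 2 lower, at 26.7 to 42.1 and 35.8 to 45.1. The 2 keratinocyte genes tested were higher, and of 3 erythrocyte and thrombocyte genes 1 was higher and 2 lower. No cholangiocyte, keratinocyte, erythrocyte or thrombocyte gene was called. Without C1-L and C3-L, the controls with most muscle RNA, 1 control library remained. In that fit 34 of 43 members were lower in high-intake livers, where 45.7% of all genes were. The medians were -0.35 for members and 0.04 for all genes.

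Further lists of the same biology, 53 other endothelial genes and the remaining genes of VEGF and angiopoietin signalling, Notch signalling and the hypoxia response, were read in the same way. Of 37 other endothelial genes tested in liver 31 were lower, where 47.1% of all genes were, and 13 of them did not overlap, where this held for 15.4%. Their median was -0.27 and limma called 0 of them, with 11 lower and 2 higher at an unadjusted p under 0.05, beside 11.3% and 12.8% of all genes. Of 21 other VEGF and angiopoietin genes 11 were lower and 10 higher (median -0.08), of 15 other Notch genes 9 were lower (median -0.03), and of 14 other hypoxia genes 4 were lower and 10 higher (median 0.10).

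Across these lists, with 37, 21, 15 and 14 genes tested, 2 genes were called in liver. Of all genes 2.19% were called, 1.27% higher and 0.919% lower, so the count is not read as a result about the lists. PTK2, the focal adhesion kinase, was at 10.4, 11.3 and 12.0 in control and 5.63, 6.05 and 6.27 in high-intake livers (-0.81 ± 0.147, SE; limma, adjusted p = 0.04536). VASH1, a secreted inhibitor of vessel growth made by endothelium, was at 23.6, 25.2 and 16.1 in control and 99.2, 61.6 and 107.6 in high-intake livers (1.98 ± 0.274, SE; limma, adjusted p = 0.02909). Neither overlapped between groups, and they moved in opposite directions. PTK2 passed the threshold in 5 of 14 alternative fits and lost the call without any 1 of the 6 livers (adjusted p = 0.05948 to 0.1732). VASH1 passed in 8 of 14 and lost the call without C1-L, C2-L, C3-L or T1-L (adjusted p = 0.06462 to 0.1271).

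**Figure D3:**
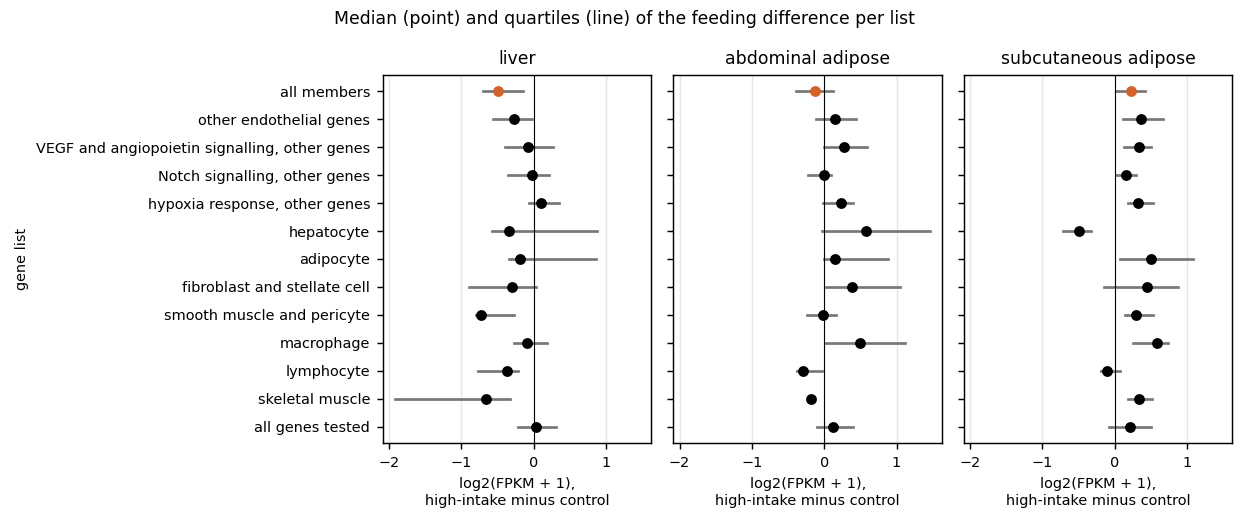
Median (point) and quartiles (line) of the difference high-intake minus control in log2(FPKM + 1) for the members (orange), the further lists and cell type lists, and all genes tested, in liver, abdominal adipose and subcutaneous adipose. In liver the members are at -0.50 and all genes at 0.03, and in subcutaneous adipose the members are at 0.22 and all genes at 0.21.

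In abdominal adipose the members moved both ways, and more of them were lower than among all genes. Of 45 members 25 had a lower and 20 a higher mean of log2(FPKM + 1) in high-intake geese, where 36.8% of all genes were lower and 63.2% higher. limma called 0 members (0.0878% of all 12526 genes), and 2 lower and 3 higher members had an unadjusted p under 0.05, beside 3.51% and 16.8% of all genes. The groups did not overlap for 4 members higher and 4 lower, beside 20.1% and 7.17% of all genes. The median difference was -0.13 for the members and 0.12 for all genes. C2-AA had the highest level of the 6 libraries for 28 of the 45 members, and without it the medians were 0.05 for members and 0.10 for all genes.

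ANGPT2 and ANGPT1 had the highest differences among the members in abdominal adipose, and the related ANGPT4 had one of -0.26. ANGPT2 was at 4.71, 6.89 and 7.64 in C1-AA, C2-AA and C3-AA and 8.50, 20.3 and 11.1 in T1-AA, T2-AA and T3-AA. ANGPT1 was at 1.71, 1.61 and 1.79 against 1.91, 5.59 and 3.52. In both genes every high-intake library was above every control, T2-AA was highest, and the differences of 0.89 ± 0.323 and 0.71 ± 0.288 (SE) did not pass the test (limma, adjusted p = 0.1988 and 0.2329). PLXND1 was at 12.5, 16.9 and 12.8 in control and 17.8, 19.8 and 19.9 in high-intake geese, a difference of 0.43 (adjusted p = 0.2078). JAG1 was the remaining member higher without overlap, at 1.52 to 1.96 against 2.05 to 2.50 (0.32, adjusted p = 0.2607).

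FLT1 showed the largest deficit in high-intake abdominal adipose, at 12.7, 25.3 and 17.5 in control and 8.38, 10.8 and 10.2 in high-intake geese (-0.81 ± 0.253, SE; limma, adjusted p = 0.1609). EFNB2, a ligand that marks arterial endothelium, was at 9.06, 22.6 and 10.4 in control and 6.91, 6.92 and 8.19 in high-intake geese (-0.74, adjusted p = 0.2575). JAG2 was at 18.3, 29.1 and 17.4 against 14.2, 16.1 and 16.8 (-0.40, adjusted p = 0.3447). In each of the 3 genes the groups did not overlap and C2-AA was the highest control. EPAS1 (-0.01), KDR (0.00) and PECAM1 (0.00), the genes of hypoxia response, VEGF signalling and endothelial adhesion described for liver, had nearly equal means here.

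Sums over fat-cell genes and other cell types differed between the groups in abdominal adipose too, and their part in these values was not tested. The 11 adipocyte genes summed to 5514, 2540 and 3600 in C1-AA to C3-AA and 5802, 5422 and 6131 in T1-AA to T3-AA, and the 16 fibroblast genes to 1106 to 1570 and 1980 to 3046. The 38 other endothelial genes with values summed to 1023 to 1410 in control and 1618 to 2326 in high-intake geese, without overlap. The members summed to 973 to 1344 and 971 to 1198, which overlapped. Abundant genes carry such a sum, among them CAV2, at 152 to 335 and 461 to 635. RAMP3 of the same list had a lower mean in high-intake geese. Summed FPKM of all genes was also higher, at 221093 to 312874 in control, lowest in C2-AA, and 340374 to 354824 in high-intake geese. With libraries scaled to the same sum 39 of 45 members were lower, where 68.6% of all genes were, and the medians were -0.52 for members and -0.22 for all genes.

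In subcutaneous adipose the members sat with the rest of the transcriptome. Of 45 members 34 were higher and 11 lower in high-intake geese, where 69% of all 13264 genes were higher and 31% lower, and the medians were 0.22 and 0.21. limma called 0 members (1.18% of all genes higher and 0.95% lower, 2.13% in all). In this fit the prior degrees of freedom were infinite. Each SE therefore came from the trend of spread with level over all genes, not from the gene's own spread. Without the trend, 0.00754% of all genes were called. At an unadjusted p under 0.05, 0 members were higher (7.21% of all genes) and 1 was lower (5.63%), FIGF, at -0.65 ± 0.330 (SE; adjusted p = 0.3883). The groups did not overlap for 2 members higher and 2 lower, beside 13.1% and 7.78% of all genes. C2-SA, the library that stood apart, had the lowest level of the 6 for 27 of the 45 members. Without it the medians were 0.00 for members and -0.01 for all genes. Again 0 members were called, beside 0.0322% of all genes. With libraries centred on their medians the medians were -0.08 and -0.09, and with libraries scaled to the same sum they were -0.39 and -0.33.

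The members with no overlap in subcutaneous adipose were TIE1, NRP2, GATA2 and SEMA3A. TIE1 was at 7.82, 3.95 and 6.17 in the control and 8.25, 13.6 and 10.3 in the high-intake geese, each in the order of goose number, a difference of 0.76 ± 0.458 (SE; limma, adjusted p = 0.4884). NRP2, a co-receptor of VEGFC, was at 4.99, 2.70 and 4.44 against 5.19, 6.65 and 5.25, a difference of 0.43 (adjusted p = 0.67) that was -0.13 with libraries scaled to the same sum. The gap between the groups was narrow in both genes, and C2-SA was the lowest library in each. GATA2 was at 1.02 to 1.29 in control and 0.499 to 0.989 in high-intake geese, and SEMA3A was below 1 in every subcutaneous library.

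Outside the members, 2 genes of the further lists, which held 38, 23, 16 and 14 genes with values, were called higher in subcutaneous adipose. Of all 13264 genes tested 1.18% were called higher and 2.13% in either direction, so the count is not read as a result about the lists. PGF, placental growth factor, a VEGF relative that binds FLT1, was at 1.08, 0.424 and 1.90 in C1-SA to C3-SA and 4.76, 11.9 and 13.9 in T1-SA to T3-SA (2.34 ± 0.373, SE; limma, adjusted p = 3.332e-07). In abdominal adipose it was at 1.91, 3.44 and 3.09 in control and 6.59, 42.5 and 16.3 in high-intake geese, where it did not pass (2.25 ± 0.586, SE; adjusted p = 0.1322). High-intake libraries were above control libraries in both depots. The subcutaneous SE came from the trend over all genes, and the abdominal SE drew on the gene's own spread as well. A call in subcutaneous adipose alone therefore shows no difference between the depots, for PGF or for ESM1 below. Without C2-SA the subcutaneous difference was 2.08 (adjusted p = 0.2083), the single library whose omission lost the call, and over 13 alternative fits PGF passed in 9.

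ESM1, a proteoglycan secreted by sprouting endothelium, was at 0.269, 0.239 and 0.0563 in control and 1.51, 0.392 and 0.933 in high-intake subcutaneous adipose (0.67 ± 0.189, SE; limma, adjusted p = 0.0233). The call was lost without C2-SA (0.3599), C3-SA (0.3144), T1-SA (0.5145) or T3-SA (0.1089, all adjusted p with limma). In abdominal adipose it was at 0.270, 0.0722 and 0.391 against 4.82, 1.81 and 2.19 (1.60 ± 0.281, SE; adjusted p = 0.09338). In both depots every high-intake library was above every control, at low levels.

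**Figure D4:**
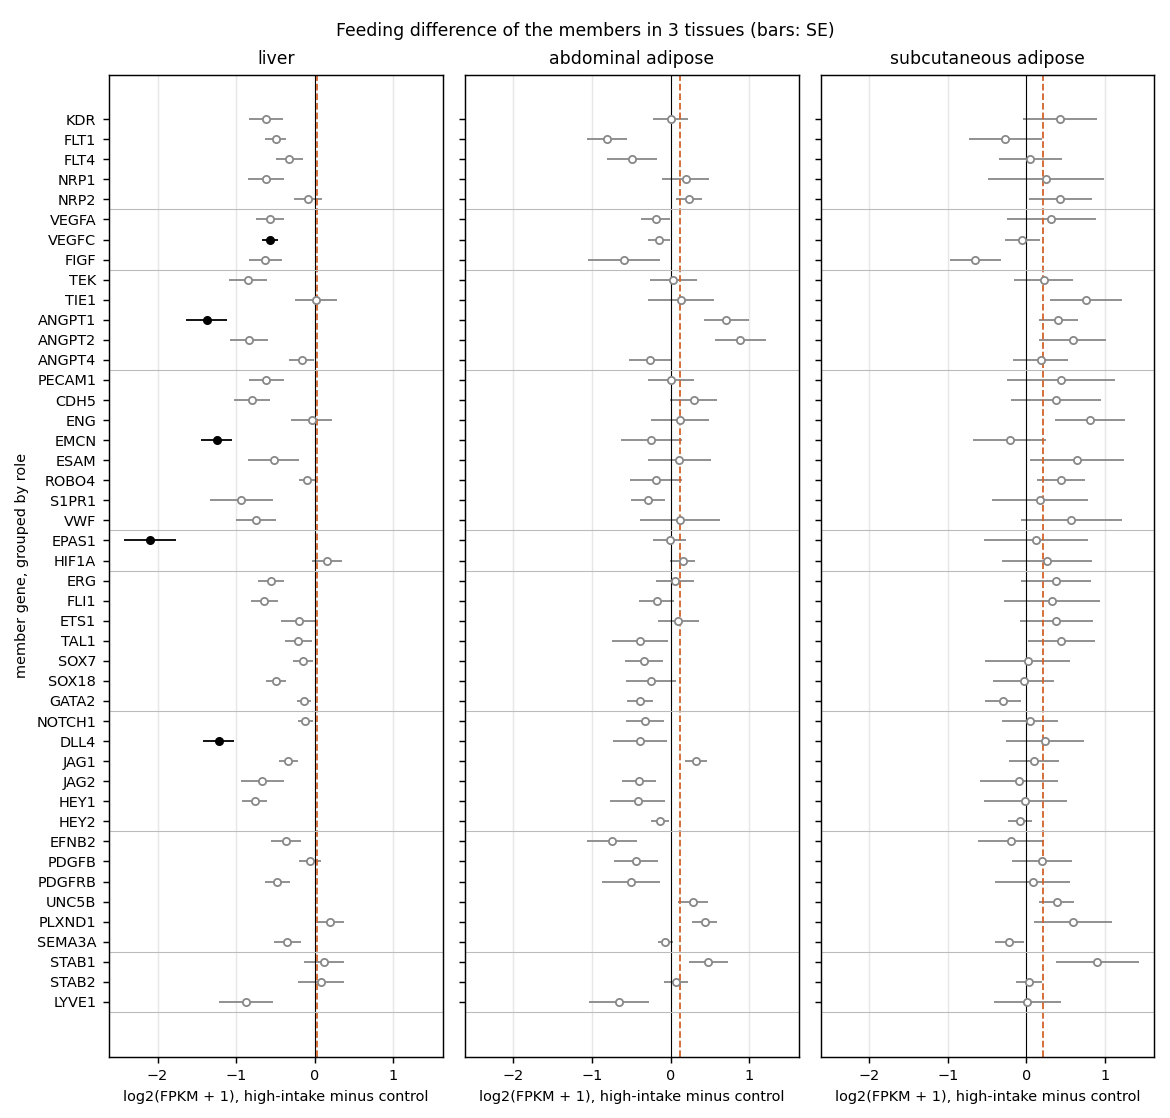
Difference high-intake minus control in log2(FPKM + 1) of each member, with its SE as a bar, in liver, abdominal adipose and subcutaneous adipose, grouped by role; filled points are called by limma, the black line is 0 and the dashed line is the median of all genes tested. In liver 38 of 43 points lie left of 0 and 5 are filled, and no point is filled in either adipose depot.

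Whether feeding acted differently on a member in liver and in adipose was tested as an interaction of tissue and feeding. limma called 0 members against abdominal adipose (0.137% of all genes) and 0 against subcutaneous adipose (0.212%). This fit, which did not pair the tissues of a goose, showed no member to respond differently. Against abdominal adipose 6 members had an unadjusted p under 0.05, all with the lower response in liver, where 9.18% of all genes did. Against subcutaneous adipose 42 of 45 members had the lower response in liver, where 67.8% of all genes did, and 11 had an unadjusted p under 0.05, where 5.43% of all genes did. These counts include goose C2, whose subcutaneous library stood apart. Without goose C2 46.7% of all genes had the lower response in liver, with a median of 0.03 for all genes beside -0.21 with it. That fit called 0 members, beside 0.226% of all genes.

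EPAS1 and ANGPT1 had the lowest responses of liver minus abdominal adipose. EPAS1 was at 77.3, 113.8 and 90.5 in control and 79.9, 92.3 and 105.3 in high-intake abdominal adipose. Its response in liver was lower by 2.08 ± 0.416 (SE; limma, adjusted p = 0.07312). EPAS1 passed in 1 of 13 alternative fits, the one without goose T3 (limma, adjusted p = 0.01876), whose liver had the highest EPAS1 of the high-intake livers. Over the 13 fits the adjusted p reached 0.2942. For ANGPT1 the response of liver minus abdominal adipose was -2.08 ± 0.412 (SE; adjusted p = 0.07119) and for ANGPT2 -1.72 ± 0.434 (SE; limma, adjusted p = 0.1393). ANGPT1 and ANGPT2 were lower without overlap in high-intake livers and higher without overlap in high-intake abdominal adipose.

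Against subcutaneous adipose the response of EPAS1 was -2.22 ± 0.621 (SE; adjusted p = 0.2032), that of ANGPT1 -1.78 ± 0.423 (SE; adjusted p = 0.1271) and that of DLL4 -1.46 ± 0.437 (SE; limma, adjusted p = 0.2426). EPAS1 was at 66.1, 45.5 and 56.1 in control and 38.3, 99.5 and 57.4 in high-intake subcutaneous adipose, with T1-SA the lowest and T2-SA the highest. ANGPT1 was at 1.10, 0.842 and 0.632 in control and 0.590, 2.77 and 1.45 in high-intake libraries, which overlapped. With the goose as a block, which pairs the tissues of an animal, ANGPT1 was called in this comparison (limma, adjusted p = 0.007752). That fit called 1.72% of all genes, 0.902% higher and 0.815% lower. It was the 1 fit of 13 alternatives in which ANGPT1 passed, and the adjusted p over them reached 0.4527.

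The order of tissues for EPAS1 and ANGPT1 was not the same in both feeding groups. EPAS1 was higher in liver than in abdominal adipose in control geese (0.72) and lower in high-intake geese (-1.37 ± 0.345, SE; limma, adjusted p = 0.01385). ANGPT1 was higher in control liver by 1.21 and lower in high-intake liver by 0.88 ± 0.307 (SE; limma, adjusted p = 0.04609). The call of EPAS1 in control geese was lost with libraries scaled to the same sum (0.09) and without goose C1 or C3, and that in high-intake geese with centred libraries (-0.76) and without goose T1 or T2. The call of ANGPT1 in high-intake geese was lost with centred libraries (-0.27), with no filter on low values and without goose T2 or T3. These comparisons share their libraries with the feeding comparisons, and both genes were singled out after their values were seen.

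**Figure D5:**
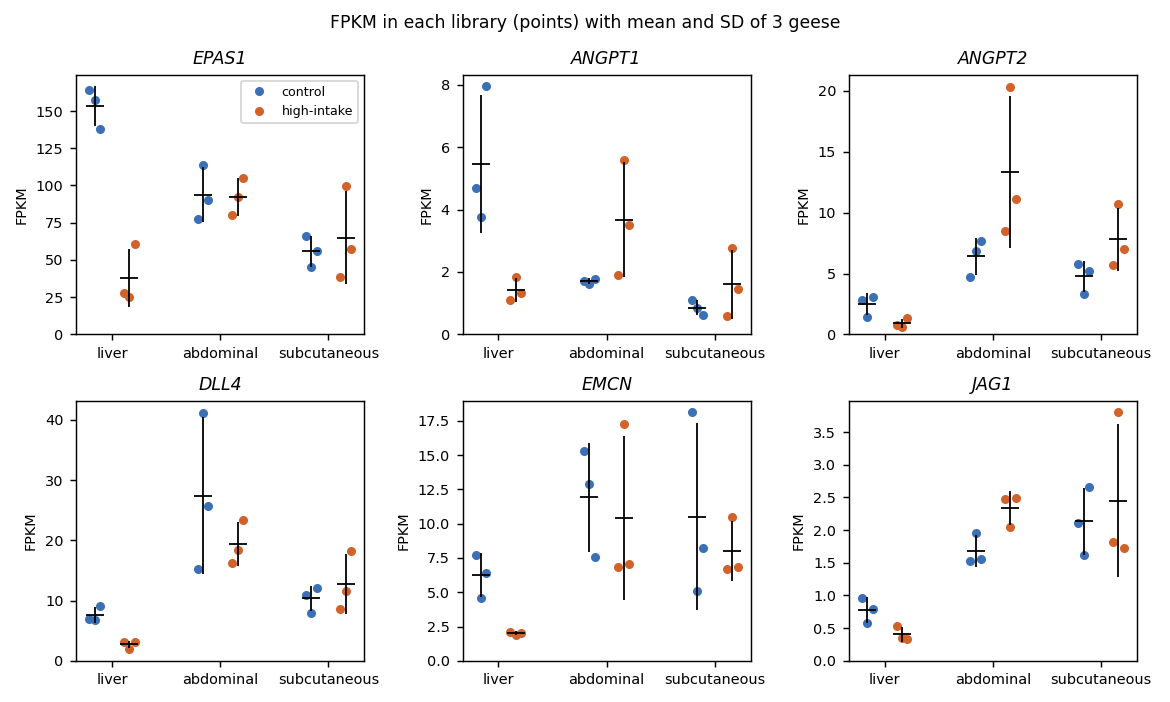
FPKM of EPAS1, ANGPT1, ANGPT2, DLL4, EMCN and JAG1 in each library (points), with the mean and SD of 3 geese, by tissue and feeding group (blue control, orange high-intake). EPAS1 is at 138.0 to 164.3 in control liver and 24.99 to 60.66 in high-intake liver, and ANGPT1 and ANGPT2 are lower in high-intake livers and higher in high-intake abdominal adipose than in the matching controls.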

How the data were processed

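Libraries of total RNA without ribosomal RNA were sequenced from both ends by the authors, who aligned the reads to the goose genome with TopHat2 and Bowtie2 and took FPKM from Cufflinks 2.1.1. The sample labels name Trizol for RNA isolation and the study's methods an RNeasy kit. The deposited table was taken to hold log2(FPKM + 1), although no source used here names the log2 step, and was converted back to FPKM. Symbols came from the annotation deposited with the tables. A gene was tested where its FPKM averaged above 0.1 across the libraries of a comparison. The values were tested on log2(FPKM + 1), a pseudocount of 1, with limma 3.58.1 in R 4.3.3 (moderated test with an intensity trend, 2-sided, Benjamini-Hochberg adjustment over all genes tested, threshold 0.05), a step tested on simulated data. Feeding groups were compared within a tissue, tissues within a feeding group, and the feeding responses of tissues as an interaction. An exact permutation test of 3 geese against 3 cannot give a p below 0.1.

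The members, gene lists and tests were chosen with earlier results of these data known. Values in every library are given for members called in a feeding comparison, the 3 largest differences each way without overlap at a mean FPKM above 1, the 5 members of highest mean, the extremes between control liver and abdominal adipose and members listed at 0; others named were chosen after their values were seen. Libraries of the same number within a feeding group, read as 1 goose, deviated together between the adipose depots and at most weakly between liver and adipose. Their correlations were 0.25 to 0.54 between the adipose depots and 0.03 to 0.26 between liver and adipose. The study's methods take the tissues from the same geese. Alternatives were the pseudocount, the filter, library scaling or centring, no trend, a replicate block and leaving out libraries. Promoter sequences were not used here.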

Additional observations from a re-analysis of the deposited data

Results flagged for a closer look

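Among the members, 3 were lower in all high-intake livers than in all control livers and higher in all high-intake than in all control abdominal adipose libraries: ANGPT1, ANGPT2 and JAG1. The same held for 92 of 11457 genes tested in both tissues (0.803%). The feeding response of liver minus abdominal adipose in log2(FPKM + 1) was -2.08 for ANGPT1 (adjusted p = 0.07119), -1.72 for ANGPT2 (adjusted p = 0.1393) and -0.66 for JAG1 (adjusted p = 0.1664). None passed the test of this difference with limma, in the fit described or in any of the 13 alternatives run for each.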

How the results depend on the processing

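Depth is unknown for these values, and 3 geese a group limit the calls. In liver, where 5 members were called, the count was 1 with no filter on low values, 3 without the intensity trend and 0 with the replicate block. In a feeding comparison that block pairs different geese that share only a replicate number, so its count is no test of pairing by goose. In liver the count was 0 to 2 when 1 library was left out, beside 0% to 2.02% of all genes. The median of -0.50 there was -0.67 with a pseudocount of 0.1, -0.59 at a mean FPKM above 1 and -0.70 with libraries scaled to 1000000. It was -0.55 to -0.41 with 1 library left out and -0.35 without C1-L and C3-L, an alternative chosen after seeing the data. Calls over all genes in liver fell from 257 to 1 with the block, 0 without C1-L and 110 with no filter. In abdominal adipose the median was 0.052 without C2-AA, where that of all genes was 0.099, with a range of -0.182 to 0.052 for the members. In subcutaneous adipose it was -0.075 with centred libraries and -0.39 with scaled libraries, where NRP2 was -0.13, and 0.00 to 0.41 with 1 library left out. Calls in control liver against control subcutaneous adipose were 17 to 38 with 1 goose left out, beside 16.7% to 55.9% of all genes. With the goose as a replicate block, 2 members were called between the control adipose depots (2.87% of all genes) and 1 in the response of liver minus subcutaneous adipose (1.72%). Without T3, 1 member was called in the response of liver minus abdominal adipose (range 0 to 1), beside 0.225% of all genes. The replicate block changed no other count of called members by over 1.5 times. Between different geese of the same replicate number r was -0.09 to 0.25, a range that overlaps that of liver and adipose of 1 goose. The number of libraries that matched their own number best was 0 in liver, 3 in abdominal and 4 in subcutaneous adipose. Between tissues of a goose it was 5 or 6.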

Other observations

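Long noncoding RNA (lncRNA) loci lay within 10000 bases of 7 members, and most were hardly expressed. A locus inside ETS1 had an FPKM of 0.340 to 0.818 in liver and 1.62 to 6.10 in adipose tissue, with every adipose library above every liver, as ETS1 itself was. A locus 2625 bases upstream of ENG had 0 to 0.621 in liver and 0.122 to 3.15 in adipose. A locus 588 bases upstream of STAB1 was at 0.083 to 0.812 in the 18 libraries. Those downstream of TAL1, SOX7, JAG2 and HEY1 had a mean of 0.079 to 0.154 and were each highest in C2-SA.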
